A study of Mus musculus with 2 samples.

Results

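The Hippo cascade was followed here through 10 genes, out of 32285 listed for each cell, that encode its kinases, their cofactors and the proteins that act upstream of them. These are *Lats1*, *Lats2*, *Stk3*, *Stk4*, *Sav1*, *Mob1a*, *Mob1b*, *Nf2*, *Frmd6* and *Taok1*, chosen by gene symbol, and all of them were found. Cells came from E7 (embryonic day 7) mouse embryos, pooled by genotype before dissociation and measured in 1 droplet library per genotype. The *Yap1* cKO embryos (mutant below) carried Sox2-Cre and 2 floxed *Yap1* alleles, and the series describes the control embryos as Sox2-Cre with 1 floxed and 1 wild-type allele. The sample labels call the controls wild type, and the description of the mice in the study also calls them floxed littermates without Cre. Sox2-Cre acts in the epiblast and its descendants. The study states that extraembryonic tissue is probably heterozygous for *Yap1* in the floxed littermates too, so it is not an unaltered reference.

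In the Hippo pathway, STE20-like kinases phosphorylate and activate the LATS kinases, which phosphorylate the coactivators YAP1 and TAZ. Phosphorylated YAP1 is held in the cytoplasm or degraded, and unphosphorylated YAP1 enters the nucleus and activates transcription with TEAD proteins. Several genes of the pathway, *Lats2* among them, are known as transcriptional targets of YAP1 and TEAD in other cells, which forms a feedback loop.

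The libraries held 1829 and 1897 barcodes with 70573418 and 87937858 UMIs (unique molecular identifiers, counted molecules), control first here and below, and 791 and 864 of them had at least 5000 detected genes, with medians of 75715 and 80921.5 UMIs per cell. No barcode that was kept occurred in both libraries. Both pools are labelled female, yet 51.7% of control and 15.5% of mutant cells had at least 2 Y-linked UMIs and none of *Xist*, so values within cells of either kind are given for the results that turn on them. Cells were assigned to populations by summed marker levels, with none of the 10 genes among the markers, and names ending in -like rest on these markers. Every named population had at least 5 of its other markers raised. Levels are UMIs summed over the cells of a population per 1000000 UMIs of the same cells (CPM), with exact 95% Poisson intervals. Ratios are those of *Yap1* cKO to control, with exact conditional binomial intervals. All intervals cover counting error only, and since there was 1 library per genotype, nothing was tested between them and the genotype cannot be told apart from the library or the pool. *Yap1*, the deleted gene, stood at 29.99 CPM in control embryonic cells and 1.78 CPM in mutant embryonic cells, a ratio of 0.0592 (0.0472 to 0.0734). Its ratio was 0.740 (0.627 to 0.872) in extraembryonic ectoderm-like cells. Among these it was 0.618 (0.432 to 0.863) in cells with Y-linked UMIs and 0.937 (0.727 to 1.21) in cells with *Xist* UMIs.

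The promoters of *Lats2* and *Frmd6*, which had the lowest ratios of the 10 genes in embryonic cells, are shown as RefSeq windows of GRCm38.p6 that run from 250 bases before to 50 bases after a transcript start. The *Lats2* window is chr14:57746074-57746373 on the minus strand and the *Frmd6* window chr12:70825264-70825563 on the plus strand. This *Lats2* window lies inside the gene span given below, and no *Lats2* window that was searched covered the upstream end of that span, at 57758388. Capitals mark GGAATG, the core letters that TEAD proteins are known to bind, which were searched on both strands (GGAATG and CATTCC).
Lats2: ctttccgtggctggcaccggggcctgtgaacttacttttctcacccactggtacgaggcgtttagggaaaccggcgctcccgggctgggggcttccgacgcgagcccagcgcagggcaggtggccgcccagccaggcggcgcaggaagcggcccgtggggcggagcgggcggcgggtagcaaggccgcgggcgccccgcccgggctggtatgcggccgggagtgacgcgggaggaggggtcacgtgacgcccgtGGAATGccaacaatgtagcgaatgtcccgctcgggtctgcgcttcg
Frmd6: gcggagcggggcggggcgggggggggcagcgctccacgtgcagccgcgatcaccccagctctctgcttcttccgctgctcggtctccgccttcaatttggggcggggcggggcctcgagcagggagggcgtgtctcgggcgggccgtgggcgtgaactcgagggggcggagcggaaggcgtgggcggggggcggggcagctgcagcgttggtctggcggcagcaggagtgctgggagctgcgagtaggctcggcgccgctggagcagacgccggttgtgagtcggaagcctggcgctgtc
The *Lats2* window held 1 match, which began 4 bases after the start, and the *Frmd6* window held none. *Sav1* and *Mob1a* had 1 match each, 106 and 209 bases before the start. No match was found in the windows of *Lats1*, *Stk4*, *Mob1b*, *Nf2* and *Taok1*, or at a second start of *Lats2*. Since 14.7% of the 32851 promoter windows of the same length held these letters, a match describes the sequence only and does not mark a binding site. The promoter of *Stk3* is not shown here.

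Taken over all embryonic cells (514 control and 539 *Yap1* cKO), the level of each of the 10 genes was lower in the mutant, but by very different amounts. *Lats2* had a ratio of 0.377 and *Frmd6* one of 0.581, while the other 8 lay between 0.785 and 0.906. The median log2 ratio of the 10 genes was -0.22, and that of the 13110 genes with at least 100 UMIs in these cells of both libraries together was -0.05, with 61.5% of them below a ratio of 1. A gene was called lower at a ratio of 0.8 or less and higher at the inverse of that limit or more. *Lats1*, *Lats2* and *Frmd6* were called lower, which makes 3 of 10, and 8.86% of all tested genes were. None of the 10 was called higher, against 4.26% of all tested genes. At 1.5-fold, *Lats2* and *Frmd6* remained, against 2.85% of all genes. Only 0.18% of tested genes had a ratio below that of *Lats2*, and 1.23% had one below that of *Frmd6*.

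**Figure D1:**
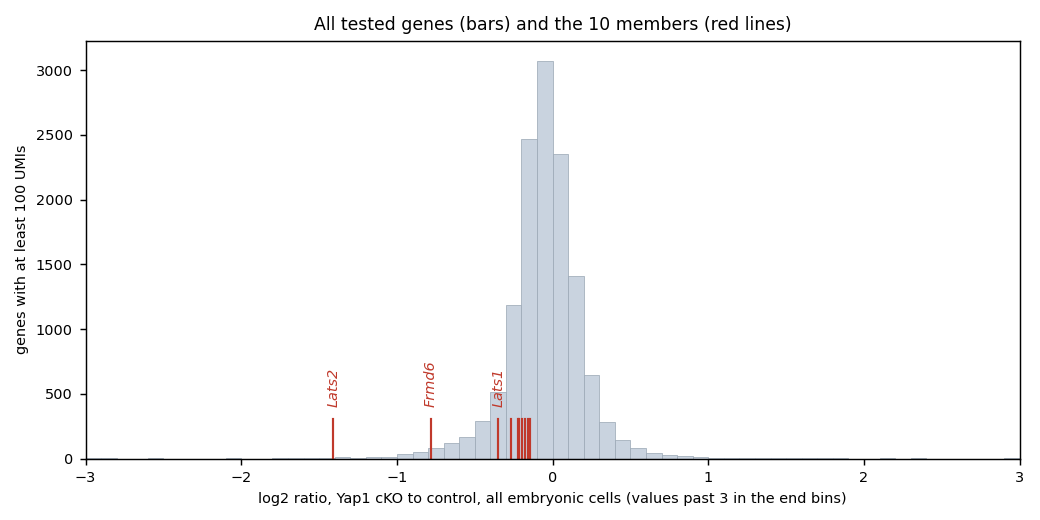
Number of genes (vertical axis) by log2 ratio of *Yap1* cKO to control in all embryonic cells (horizontal axis), for the 13110 genes with at least 100 UMIs, with red lines at the 10 Hippo genes. *Lats2* and *Frmd6* lie on the left tail, and the other 8 lines lie together just left of 0.

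The LATS kinases, the last kinases of the cascade, differed from each other. *Lats1* (ENSMUSG00000040021, chromosome 10 from 7681214 to 7716460 of GRCm38) had 18.8 CPM in control and 14.8 CPM in mutant embryonic cells, from 770 and 750 UMIs, a ratio of 0.785 (0.709 to 0.870). *Lats2* (ENSMUSG00000021959, chromosome 14 from 57689662 to 57758388) had 13.3 CPM and 5.01 CPM, from 544 and 254 UMIs, a ratio of 0.377 (0.323 to 0.438). The intervals of the *Lats2* level did not overlap between the libraries. Within cells with Y-linked UMIs (269 control and 96 mutant cells) the *Lats2* ratio was 0.325 (0.238 to 0.436), and within cells with *Xist* UMIs (225 and 416 cells) it was 0.404 (0.330 to 0.494). The *Lats1* ratio in the same cells was 0.702 (0.580 to 0.847) and 0.827 (0.720 to 0.9496), and with a minimum of 2000 detected genes or with TMM scaling it was 0.811 and 0.813, on the other side of the limit of 0.8, which left 2 genes called lower.

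*Lats2* was lower in the mutant in each embryonic population when all of its cells were taken. In primitive streak-like cells with Y-linked UMIs the ratio was above 1, with an interval that held 1. In epiblast-like cells it had 9.38 CPM (8.15 to 10.7) in control and 3.89 CPM (3.20 to 4.70) in mutant cells, a ratio of 0.415 (0.326 to 0.526). The epiblast-like ratio was 0.299 (0.178 to 0.481) in cells with Y-linked UMIs, 0.446 (0.327 to 0.607) in cells with *Xist* UMIs and 0.270 in cells without a *Fgf8* UMI. In primitive streak-like cells the ratio was 0.565 (0.328 to 0.969), from 31 and 29 UMIs. It was 1.57 (0.453 to 5.66) in those with Y-linked UMIs, from 6 and 7 UMIs, and 0.382 (0.206 to 0.707) in those with *Xist* UMIs. In nascent mesoderm-like cells the level was 12.3 CPM in control and 4.69 CPM in mutant cells, a ratio of 0.380 (0.239 to 0.594). Those with Y-linked UMIs had a ratio of 0.147 (0.00362 to 0.884), with 1 UMI in 5 mutant cells, and those with *Xist* UMIs one of 0.437 (0.247 to 0.778). The highest control levels, 26.5 CPM in blood and endothelial-like cells and 26.1 CPM in the cells gated by *Foxf1* and *Hand1* (called *Foxf1*/*Hand1* cells below), stood beside 9.38 and 8.35 CPM in the mutant. These 2 ratios were 0.354 (0.227 to 0.539) and 0.320 (0.223 to 0.453). In the cells gated by *Noto*, *Chrd* and *Shh* the ratio was 0.389 (0.127 to 1.01), from 19 and 6 UMIs. No embryonic population had a *Lats2* ratio that differed from that of epiblast-like cells beyond the counting interval, and in *Foxf1*/*Hand1* cells it was 0.772 (0.512 to 1.16) of the epiblast-like ratio.

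Extraembryonic populations were taken for comparison. Extraembryonic ectoderm-like cells had 12.2 CPM in control and 13.9 CPM in mutant cells, a ratio of 1.14 (0.926 to 1.40). All visceral endoderm-like cells, anterior ones included, had 5.71 and 4.56 CPM, a ratio of 0.799 (0.532 to 1.22) from 36 and 79 UMIs. The embryonic ratio was 0.330 (0.257 to 0.424) of that in extraembryonic ectoderm-like cells and 0.471 (0.309 to 0.718) of that in all visceral endoderm-like cells. The value for visceral endoderm-like cells depended on the cells used. Within cells with *Xist* UMIs (58 control and 176 mutant cells there) the visceral endoderm-like *Lats2* ratio was 0.553 (0.357 to 0.872) and the embryonic ratio 0.730 of it. Within cells with Y-linked UMIs (24 and 18 cells) these were 5.10 (1.35 to 28.4), from 3 and 11 UMIs, and 0.0637. In extraembryonic ectoderm-like cells the *Lats2* ratio was 1.12 (0.817 to 1.56) and 0.998 (0.637 to 1.51) in cells with *Xist* and with Y-linked UMIs. For *Lats1* the same comparisons gave 0.949 (0.737 to 1.22) and 0.951 (0.778 to 1.16), so its embryonic and extraembryonic ratios were not told apart.

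**Figure D2:**
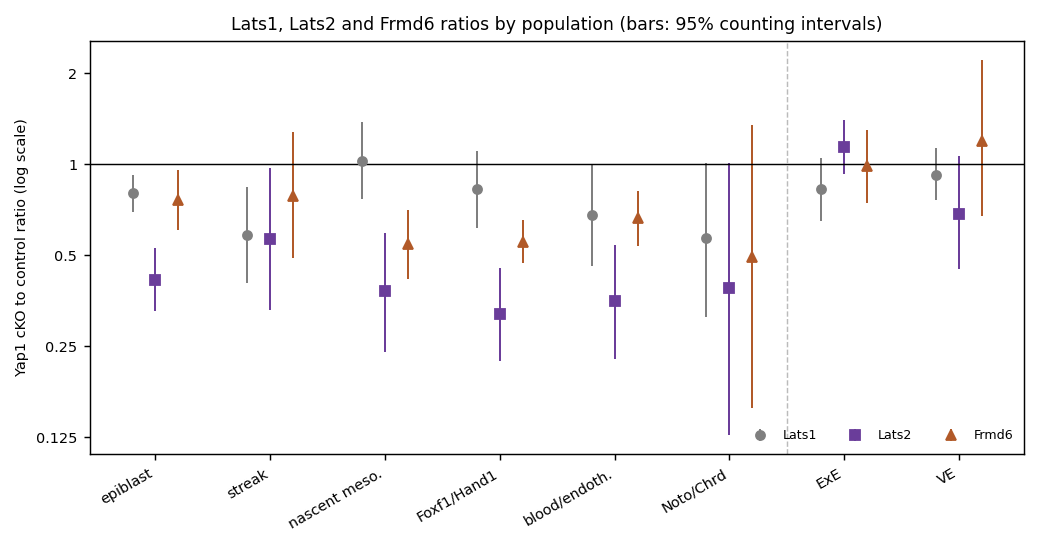
*Yap1* cKO to control ratio (vertical axis, log scale) of *Lats1*, *Lats2* and *Frmd6* in 8 populations, with 95% counting intervals. The *Lats2* points lie between 0.320 and 0.565 in the embryonic populations left of the dashed line and at 1.14 in extraembryonic ectoderm-like cells (ExE).

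The balance within the LATS pair differed between populations and libraries. The share of *Lats2* among *Lats1* and *Lats2* UMIs can be compared between populations, although it does not give the balance of the transcripts, since capture at the 3' end differs between genes. In control cells the share was 34.9% (31.1 to 38.9) in epiblast-like, 56.3% (49.9 to 62.6) in *Foxf1*/*Hand1* and 55.2% (46.7 to 63.4) in blood and endothelial-like cells. In the mutant it was 21.8% (18.3 to 25.7), 33.3% (25.4 to 42.1) and 39.0% (28.4 to 50.4) in the same populations. Nascent mesoderm-like cells had 41.5% in the control and 20.8% in the mutant. Extraembryonic ectoderm-like cells had 52.3% (47.2 to 57.3) and 60.1% (54.2 to 65.9), and visceral endoderm-like cells 19.8% and 15.5%. In all embryonic cells the share was 41.4% (38.7 to 44.1) and 25.3% (22.6 to 28.1).

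**Figure D3:**
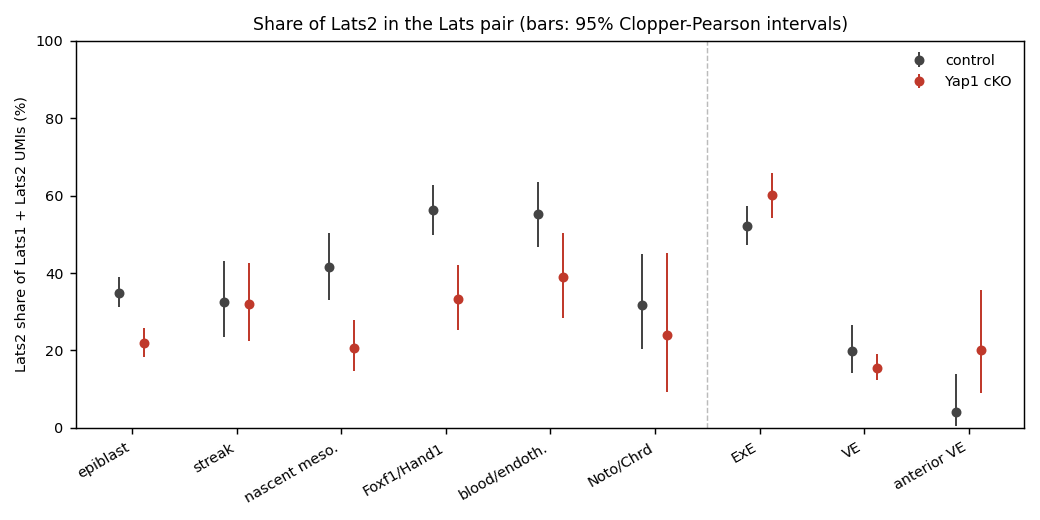
Share of *Lats2* in the sum of *Lats1* and *Lats2* UMIs (vertical axis, percent) by population and library, with 95% Clopper-Pearson intervals. Control lies above *Yap1* cKO without overlap in epiblast, nascent mesoderm and *Foxf1*/*Hand1* cells, and not in extraembryonic ectoderm (ExE) or visceral endoderm (VE).

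Shares of cells with at least 1 *Lats2* UMI were taken after thinning each cell to 38000 UMIs, which excluded 26 shallower cells of the control and 48 of the mutant. In epiblast-like cells the share was 29.0% (23.6 to 34.8) in control cells and 13.7% (9.80 to 18.3) in mutant cells, and 47.6% and 29.9% without thinning. In *Foxf1*/*Hand1* cells it was 52.1% (39.9 to 64.1) and 27.0% (16.6 to 39.7). Extraembryonic ectoderm-like cells had 35.8% (28.7 to 43.5) and 37.6% (27.8 to 48.3). No population is known to lack *Lats2*, so the share that free RNA gives could not be set. Visceral endoderm-like cells, anterior ones apart, had 13.1% (5.84 to 24.2) and 12.5% (7.91 to 18.5), close to the share of the mutant epiblast-like cells. The median depths were 74350 and 86476 UMIs in epiblast-like cells, and 79141 and 76015 UMIs in visceral endoderm-like cells.

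The kinases upstream of LATS are MST2, encoded by *Stk3* (ENSMUSG00000022329, chromosome 15 from 34875496 to 35178921), and MST1, encoded by *Stk4* (ENSMUSG00000018209, chromosome 2 from 164070322 to 164155524). *Stk3* had 35.7 CPM in control and 31.1 CPM in mutant embryonic cells, a ratio of 0.871 (0.811 to 0.936). *Stk4* had 53.9 and 48.8 CPM, a ratio of 0.906 (0.855 to 0.960). Both ratios lay within the range of most genes, since 19.3% and 28.8% of tested genes were lower than *Stk3* and *Stk4*. The *Stk3* ratio was 0.740 (0.647 to 0.843) within cells with Y-linked UMIs and 0.957 (0.867 to 1.06) within cells with *Xist* UMIs. *Gm11455* on the same strand and *Tomm34* on the other overlap *Stk4*, and reads shared with them could not be told apart here.

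The MST kinases differed in opposite directions between epiblast-like and *Foxf1*/*Hand1* cells. *Stk3* was 1.84-fold (1.60 to 2.11) as high in *Foxf1*/*Hand1* as in epiblast-like cells of the control, and 1.65-fold (1.41 to 1.92) in those of the mutant. *Stk4* had 0.742 times (0.643 to 0.852) the epiblast-like level in *Foxf1*/*Hand1* cells of the control and 0.646 times (0.552 to 0.752) in those of the mutant. *Stk3* was also 1.63-fold (1.246 to 2.10) and 1.59-fold (1.28 to 1.97) as high in anterior visceral endoderm-like as in the other visceral endoderm-like cells. These differences between populations had the same direction in both libraries. The share of *Stk3* among *Stk3* and *Stk4* UMIs in embryonic cells was 39.8% (38.2 to 41.4) in control cells and 38.9% (37.4 to 40.4) in mutant cells.

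*Sav1* (ENSMUSG00000021067, chromosome 12 from 69965012 to 69987002) encodes the scaffold that binds the MST kinases. Its embryonic levels were 25.6 CPM in control and 22.6 CPM in mutant cells, a ratio of 0.883 (0.812 to 0.962). In extraembryonic ectoderm-like cells the levels were 25.2 and 19.2 CPM, a ratio of 0.765 (0.650 to 0.899), lower than in the embryonic cells, but the comparison of both ratios gave 1.15 (0.965 to 1.38). The differences between populations were larger than those between libraries. Control *Sav1* had 8.69 CPM in visceral endoderm-like, 18.8 CPM in epiblast-like, 39.5 CPM in *Foxf1*/*Hand1* and 41.8 CPM in blood and endothelial-like cells, and 5.35 CPM from 6 UMIs in anterior visceral endoderm-like cells. *Foxf1*/*Hand1* cells had 4.54-fold (3.28 to 6.42) the visceral endoderm-like level in the control and 4.70-fold (3.73 to 5.94) in the mutant. *Foxf1*/*Hand1* cells also had 2.10-fold (1.77 to 2.48) the epiblast-like level in the control and 2.22-fold (1.87 to 2.63) in the mutant. In the control order of all 9 populations, visceral endoderm-like and epiblast-like cells were neighbours and stood apart. From epiblast-like cells upwards, adjacent populations of that full order, which includes some not listed here, did not differ beyond their intervals. *Atl1* overlaps *Sav1* on the opposite strand.

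The MOB1 proteins, which bind and activate the LATS kinases, are encoded by *Mob1a* (ENSMUSG00000043131, chromosome 6 from 83326016 to 83343776) and *Mob1b* (ENSMUSG00000006262, chromosome 5 from 88720855 to 88764220). *Mob1a* had 19.0 CPM in control and 15.7 CPM in mutant embryonic cells, a ratio of 0.829 (0.750 to 0.917). *Mob1b* had 28.4 and 24.4 CPM, a ratio of 0.859 (0.792 to 0.932). The *Mob1a* ratio was lowest in *Foxf1*/*Hand1* cells, at 0.643 (0.493 to 0.837), and above 1 in all visceral endoderm-like cells, at 1.24 (1.05 to 1.48). This visceral endoderm-like ratio was 0.794 (0.498 to 1.248) within cells with Y-linked UMIs, an interval that held 1. Within cells with *Xist* UMIs it was 1.38 (1.12 to 1.70), so the value above 1 held in the latter only. Subtraction of 5% free RNA gave an embryonic *Mob1a* ratio of 1.02, so its direction in embryonic cells rests on how free RNA is treated.
*Mob1a* and *Mob1b* were distributed unlike each other in extraembryonic ectoderm-like cells. *Mob1a* was 1.86-fold (1.62 to 2.14) as high in extraembryonic ectoderm-like as in epiblast-like cells of the control and 1.93-fold (1.66 to 2.24) in those of the mutant. *Mob1b* was 1.98-fold (1.66 to 2.36) and 1.86-fold (1.59 to 2.19) as high in visceral endoderm-like as in extraembryonic ectoderm-like cells. *Mob1a* was not lower in these visceral endoderm-like cells beyond its intervals, with 27.8 CPM (23.5 to 32.7) in the control and 34.7 CPM (31.8 to 37.7) in the mutant. Extraembryonic ectoderm-like cells had 29.0 CPM (26.5 to 31.6) and 26.8 CPM (24.0 to 29.8) of *Mob1a*. The share of *Mob1a* among *Mob1a* and *Mob1b* UMIs was 37.8% in epiblast-like and 58.9% in extraembryonic ectoderm-like cells of the control, and 39.1% and 59.3% in the mutant.

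*Nf2* (ENSMUSG00000009073, chromosome 11 from 4765845 to 4849536) encodes Merlin, a membrane-associated tumour suppressor that recruits LATS kinases. It had 38.2 CPM in control and 32.7 CPM in mutant embryonic cells, a ratio of 0.858 (0.8003 to 0.920). The ratio was also 0.858 (0.750 to 0.982) in extraembryonic ectoderm-like cells and 0.801 (0.685 to 0.939) in all visceral endoderm-like cells, so the embryonic ratio divided by these gave 0.9996 (0.861 to 1.16) and 1.07 (0.904 to 1.27). Over the 9 populations *Nf2* had a range of 1.67-fold between the highest and the lowest level in the control, narrower than the 1.71-fold of *Stk4*, and 1.71-fold in the mutant, where *Stk4* had 1.65-fold.
*Taok1* (ENSMUSG00000017291, chromosome 11 from 77529162 to 77607815) encodes a kinase that phosphorylates the MST kinases. It had 67.7 and 60.5 CPM in embryonic cells, a ratio of 0.894 (0.849 to 0.942). Its level in anterior visceral endoderm-like cells was 2.32-fold (1.87 to 2.85) and 2.35-fold (1.93 to 2.86) that in extraembryonic ectoderm-like cells, which had the lowest level in both libraries. *Abhd15* overlaps *Taok1* on the opposite strand.

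*Frmd6* (ENSMUSG00000048285, chromosome 12 from 70825514 to 70902234, 838.5 kb from *Sav1*) encodes a FERM-domain protein also called Willin. Of the 10 genes it differed most between populations. In the control it had 3.09 CPM (1.77 to 5.02) in visceral endoderm-like, 7.13 CPM (6.07 to 8.33) in epiblast-like and 7.56 CPM (6.32 to 8.99) in extraembryonic ectoderm-like cells. Primitive streak-like cells had 10.5 CPM (7.21 to 14.7). The level was 28.0 CPM (23.3 to 33.3) in nascent mesoderm-like, 72.3 CPM (63.0 to 82.5) in blood and endothelial-like and 80.5 CPM (73.0 to 88.5) in *Foxf1*/*Hand1* cells. The upper 2 of this order were not told apart, and nascent mesoderm-like cells stood apart from them and from primitive streak-like cells. The *Yap1* cKO library had the same 3 populations on top, with 47.8 CPM in blood and endothelial-like, 44.6 CPM in *Foxf1*/*Hand1* and 15.2 CPM in nascent mesoderm-like cells. *Foxf1*/*Hand1* cells had 11.3-fold (9.38 to 13.6) the epiblast-like level in the control and 8.21-fold (6.67 to 10.1) in the mutant.

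**Figure D4:**
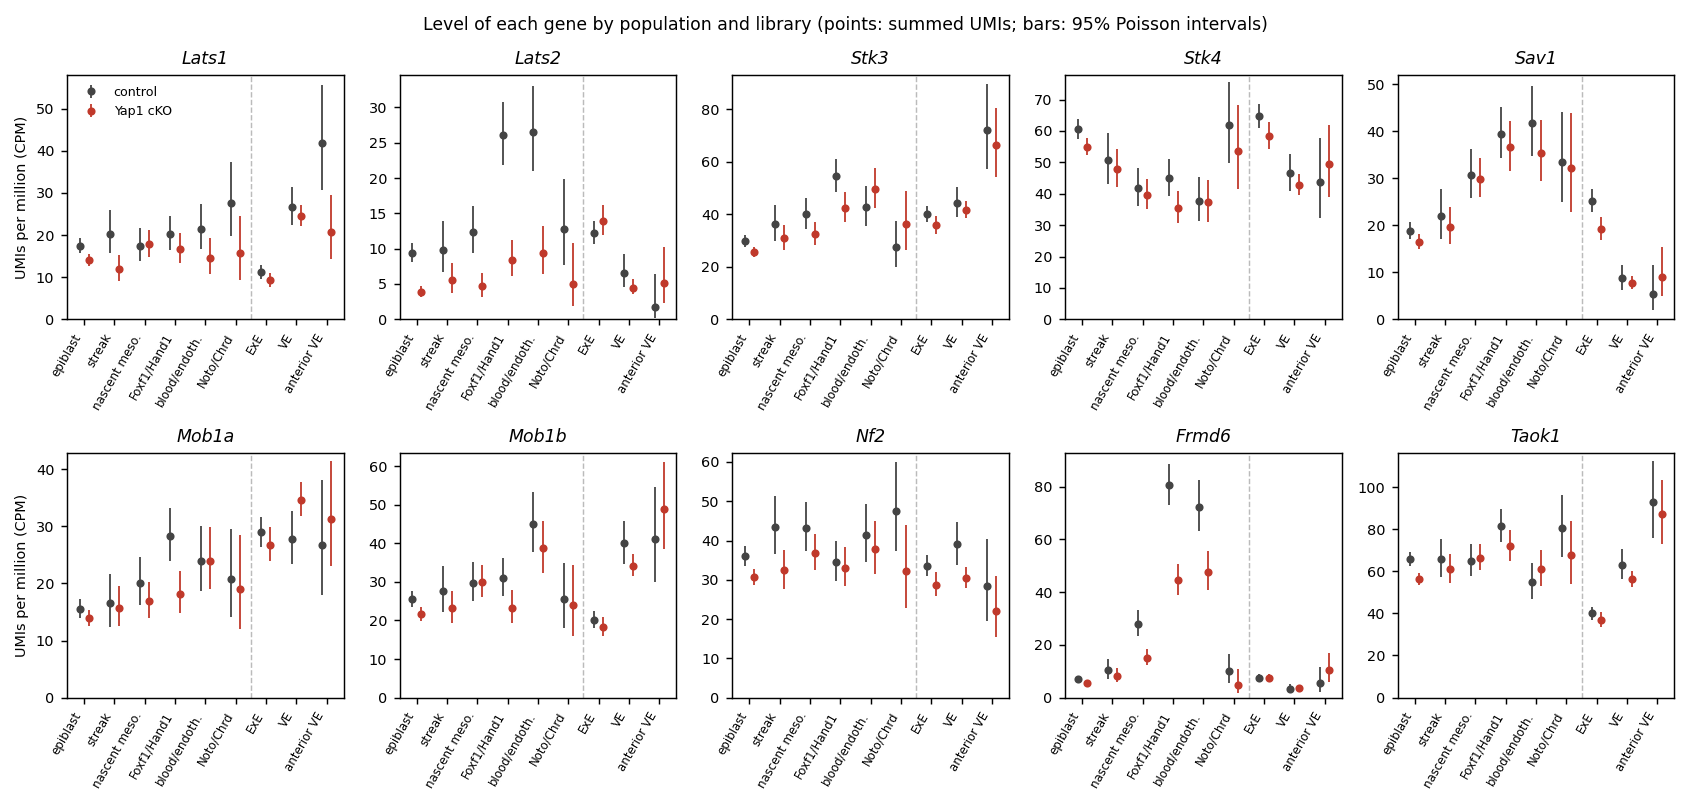
Level (CPM, vertical axes from 0) of the 10 genes in 9 populations, with embryonic populations left of the dashed line, control in grey and *Yap1* cKO in red, and 95% Poisson intervals. *Frmd6* and *Sav1* are highest in blood and endothelial (blood/endoth.) and *Foxf1*/*Hand1* cells in both libraries, and the *Lats2* points of the libraries are apart in most embryonic populations and close in extraembryonic ectoderm (ExE).

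Between the libraries, *Frmd6* had 24.1 CPM in control and 14.0 CPM in mutant embryonic cells, from 987 and 711 UMIs, a ratio of 0.581 (0.527 to 0.640). The ratio was 0.543 (0.416 to 0.708) in nascent mesoderm-like, 0.554 (0.471 to 0.652) in *Foxf1*/*Hand1* and 0.661 (0.536 to 0.813) in blood and endothelial-like cells. It was 0.761 (0.605 to 0.957) in epiblast-like and 0.787 (0.488 to 1.28) in primitive streak-like cells. The *Foxf1*/*Hand1* ratio was 0.728 (0.554 to 0.957) of the epiblast-like one. Within cells with *Xist* UMIs these ratios were 0.730 (0.576 to 0.928) and 0.749 (0.554 to 1.02), *Foxf1*/*Hand1* cells first. Within cells with Y-linked UMIs they were 0.357 (0.243 to 0.510) and 0.742 (0.487 to 1.11). The intervals overlapped in either kind of cells. In extraembryonic ectoderm-like cells *Frmd6* had 7.56 and 7.44 CPM, a ratio of 0.984 (0.745 to 1.30), and the embryonic ratio was 0.591 (0.444 to 0.785) of it. Within cells with *Xist* UMIs the extraembryonic ectoderm-like ratio was 0.995 (0.655 to 1.53) and the embryonic ratio 0.713 of it. Within cells with Y-linked UMIs these were 0.930 (0.506 to 1.61) and 0.479. In either kind of cells the intervals of the embryonic and extraembryonic ectoderm-like ratios overlapped.
With the embryonic populations weighted equally the embryonic ratio was 0.606. The ratio was 0.446 (0.366 to 0.540) within cells with Y-linked UMIs and 0.709 (0.622 to 0.809) within cells with *Xist* UMIs, and these intervals do not overlap. The median log2 ratio of all tested genes was -0.13 in the former cells and -0.01 in the latter. In epiblast-like cells without a *Fgf8* UMI (89 control and 37 mutant cells, 32.6% and 13.2% of them) the *Frmd6* ratio was 1.07.

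Most marker genes of the *Foxf1*/*Hand1* cells were also lower in the mutant. *Hand1*, a gate gene, had 474 CPM in control and 310 CPM in mutant cells, a ratio of 0.655. The ratios of *Foxf1*, *Tbx20*, *Pmp22*, *Bmp4* and *Ahnak* were 0.777, 0.564, 0.494, 0.533 and 0.239, and that of *Gata4* was 1.01, so 6 of the 7 markers were lower in the mutant. *Prl3d1* and *Prl3d2*, genes of trophoblast giant cells, were among the leading genes of the *Foxf1*/*Hand1* cells, which held 2 control cells of other origin. Without such cells the *Frmd6* and *Lats2* ratios there were 0.539 and 0.314. Summed visceral endoderm gate markers were at 3.59 CPM in control and 19.0 CPM in mutant *Foxf1*/*Hand1* cells, against 13491.5 and 12352 CPM in visceral endoderm-like cells. Whether the composition of this population differed between the libraries and had a part in these ratios was not tested. After thinning, 76.1% (64.5 to 85.4) of the *Foxf1*/*Hand1* cells in the control, and 74.6% (62.1 to 84.7) in the mutant, had a *Frmd6* UMI. Doubled gate levels gave a *Frmd6* ratio of 0.668 in these cells. Among those with Y-linked UMIs (47 control and 14 mutant cells) the *Frmd6* ratio was 0.357 (0.243 to 0.510) and the *Lats2* ratio 0.444 (0.234 to 0.780). Among those with *Xist* UMIs (20 and 49 cells) the ratios were 0.730 (0.576 to 0.928) for *Frmd6* and 0.363 (0.212 to 0.616) for *Lats2*. *Lats2* and *Frmd6* were thus lower in the mutant within both kinds of cells, and the intervals of *Frmd6* did not overlap between them.

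In *Foxf1*/*Hand1* cells, 6 of the 10 genes were called lower and 10.9% of all tested genes were, and the median log2 ratio of the 10 was -0.35 beside -0.02 for all genes. These 6 were *Lats2*, *Frmd6*, *Mob1a*, *Mob1b*, *Stk3* and *Stk4*. Among the cells with Y-linked UMIs 6 of 9 genes with enough UMIs were called lower (17.5% of all genes), with *Taok1* (0.790) and without *Stk4* (0.835). Among those with *Xist* UMIs 4 of 8 were called lower (9.66%). The *Stk3* ratio was 0.655 (0.460 to 0.913) in the former. In the latter it was 1.01 (0.756 to 1.36), an interval that held 1 and overlapped the other. Within epiblast-like cells 2 of 10 passed (*Lats2* and *Frmd6*), with a background of 9.18%, and *Lats1* stood just short of the limit at 0.8004. Within epiblast-like cells with Y-linked UMIs 7 of 10 were called lower (26.8% of all genes), and within those with *Xist* UMIs 3 of 10 (7.76%). In primitive streak-like cells *Lats1* and *Nf2* passed of the 8 genes with at least 100 UMIs (12.2% of all genes), *Lats2* and *Frmd6* having too few UMIs. Nascent mesoderm-like cells had 1 of 9 (*Frmd6*, background 8.87%), with *Lats2* under the UMI minimum. Blood and endothelial-like cells had 3 of 10 (*Lats1*, *Lats2* and *Frmd6*, background 9.59%). With Y-linked UMIs 3 of 6 were called lower (*Frmd6*, *Mob1b* and *Nf2*, 16.9% of all genes), and with *Xist* UMIs 0 of 7 (11.2%), *Frmd6* at 0.845 (0.633 to 1.13). *Mob1b* and *Nf2*, at 0.858 and 0.912, were not called in all blood and endothelial-like cells. *Lats1* and *Lats2* had too few UMIs for a call in either kind of cells. Their ratios were 0.909 (0.493 to 1.65) and 0.322 (0.143 to 0.656) with Y-linked UMIs. With *Xist* UMIs they were 0.414 (0.216 to 0.768) and 0.287 (0.144 to 0.542). *Lats1* did not follow *Lats2* in nascent mesoderm-like cells, where its ratio was 1.03 (0.769 to 1.38).

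The same counts were made outside the embryonic lineage. In extraembryonic ectoderm-like cells 1 of 10 was called lower (*Sav1*), with 10.1% of all genes, and the median log2 ratio of the 10 genes was -0.14 beside -0.07 for all genes. The *Sav1* ratio there was 0.914 (0.669 to 1.23) within cells with Y-linked UMIs and 0.683 (0.535 to 0.872) within those with *Xist* UMIs. Its call thus held in the latter only. In all visceral endoderm-like cells, anterior ones included, 1 of 9 was called lower (*Lats2*, background 10.3%) and *Frmd6* had too few UMIs. Without the anterior cells 2 of 9 were called lower, *Lats2* at 0.685 (0.449 to 1.06) and *Nf2* at 0.782 (0.662 to 0.926), against 8.33% of all genes. Neither tissue had a member that was called higher, with backgrounds of 3.58% and 7.66%. In all visceral endoderm-like cells *Mob1a*, at 1.24, stood just short of the upper limit. *Lats2*, at 0.799, was just past the lower limit there, with an interval that held 1. Anterior visceral endoderm-like cells had 4 members with at least 100 UMIs, and none of these was called lower or higher (backgrounds 9.54% and 10.3%). *Lats1*, below that minimum there, had 41.9 and 20.8 CPM from 47 and 32 UMIs, a ratio of 0.497 (0.307 to 0.796), and *Yap1* a ratio of 0.315 (0.174 to 0.551) in the same cells.

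**Figure D5:**
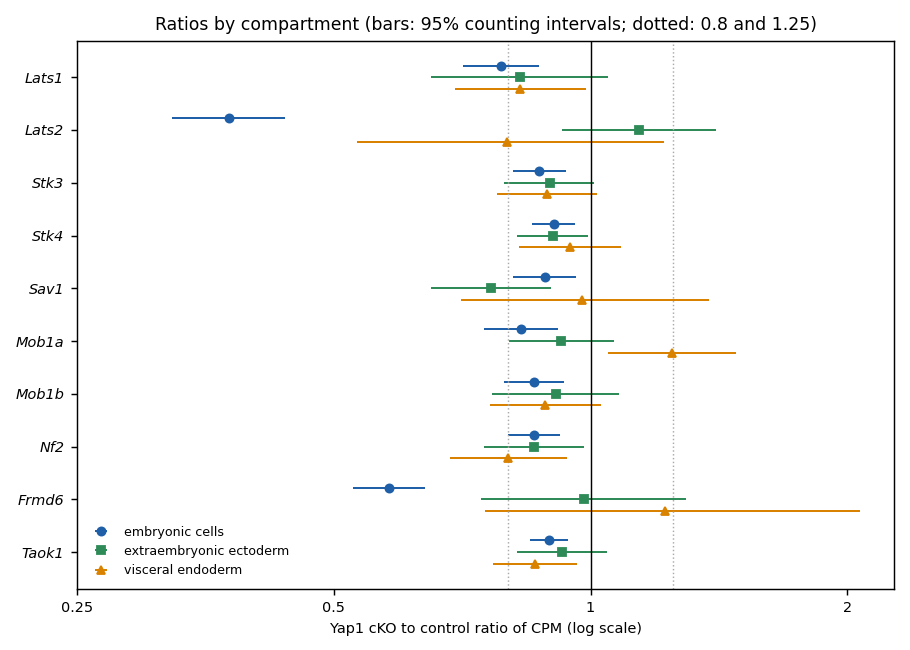
*Yap1* cKO to control ratio (horizontal axis, log scale) of the 10 genes in all embryonic cells, extraembryonic ectoderm and visceral endoderm, with 95% counting intervals and dotted lines at the limits for a call. The embryonic points of *Lats2* and *Frmd6* lie left of both extraembryonic points, and those of *Stk4*, *Nf2* and *Taok1* lie among them.

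Of 64 other genes of the pathway besides *Yap1*, 61 had at least 100 UMIs in embryonic cells, with a median ratio of 0.927. Called lower were 9, and 2 were called higher (*Taok3* and *Map4k2*, kinases that act upstream like *Taok1*), with backgrounds of 8.86% and 4.26%. Those lower by 1.5-fold were 6 of the 61, with a background of 2.85%. *Amotl2*, an angiomotin that binds YAP1, had 28.0 and 10.7 CPM, a ratio of 0.381 (0.343 to 0.422). *Ajuba* and *Wtip*, LIM proteins that bind and inhibit LATS, had ratios of 0.407 (0.370 to 0.447) and 0.625 (0.586 to 0.666). *Wwc2*, a relative of KIBRA, had a ratio of 0.550 (0.514 to 0.589) and *Ptpn14*, a phosphatase that binds YAP1, one of 0.580 (0.521 to 0.645). *Tead4* had a ratio of 0.656 (0.536 to 0.803). In epiblast-like cells the *Tead4* ratio was 1.28 (0.689 to 2.45), from 18 and 29 UMIs. The other genes lower by 1.5-fold had ratios there from 0.295 (*Amotl2*) to 0.664 (*Wtip*).
In extraembryonic ectoderm-like cells the ratios of *Ajuba*, *Wwc2*, *Ptpn14* and *Wtip* were 0.956, 0.924, 1.02 and 1.02, and those of *Amotl2* and *Tead4* were 0.843 (0.744 to 0.953) and 0.824 (0.748 to 0.908). There, 4 of 57 tested genes of the list were called lower and 0 higher, with backgrounds of 10.1% and 3.58%. In all visceral endoderm-like cells 8 of 55 were called lower and 0 higher, with backgrounds of 10.3% and 7.66%. *Amotl2*, at 0.736 (0.594 to 0.916), and *Wtip*, at 0.785 (0.595 to 1.04), were among these 8. *Wwtr1*, which encodes TAZ, had 17.6 and 17.8 CPM in embryonic cells, a ratio of 1.02 (0.921 to 1.12). *Ccn1* and *Ccn2*, known YAP1 targets, had embryonic ratios of 0.307 (0.251 to 0.373) and 0.562 (0.476 to 0.662).

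The genes whose levels followed those of the most variable members best were found over 18 points, 9 populations in 2 libraries, among 12534 genes. The points share libraries and depths, so the correlations are a description. *Frmd6* was most like *Ets1* (Pearson's r 0.958 of log2 CPM + 1), *Rgs5* (0.958) and *Hoxb2* (0.947). In embryonic cells the ratios of these 3 genes were 0.801 (0.711 to 0.901), 0.8002 (0.623 to 1.03) and 0.793 (0.682 to 0.921), above that of *Frmd6*. Genes most like *Sav1* included *Zfp704* (0.949) and *Rps6ka6* (0.941). *Lats2* had no gene as close, with *Zc3h13* (0.822), *Wdr5* (0.813) and *Lrrk1* (0.809) at the top. Some *Lats2* points rest on few UMIs, such as 2 in control anterior visceral endoderm-like cells, where *Frmd6* and *Sav1* had 6 each. Whether counting error or the difference between the libraries lowered the *Lats2* correlations was not tested.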

How the data were processed

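Single cells of E7 embryos were measured by 3' droplet sequencing, in 1 library per genotype. The deposited values are UMI counts per gene and barcode, which the authors made with Cell Ranger 7.1.0 on mm10, per the submitters' processing notes. By default this version also counts intronic reads, so unspliced RNA may add to long genes. The authors' correction for free RNA was not repeated, and a subtraction of 5% served as an alternative.

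Barcodes with at least 5000 genes and at most 10% mitochondrial UMIs were kept (Python 3.11.15, scanpy 1.11.5). Cells were gated by summed marker CPM, at levels set after the distributions were seen. Cells past exclusive gates (10 control, 14 *Yap1* cKO) were left out. The 16 and 9 cells that passed no gate were counted among all embryonic cells and in no single population. Within 1.5 times of the gate level lay 104 and 79 cells for epiblast and 68 and 66 for *Foxf1*/*Hand1*. Shares of populations between genotypes were therefore not compared. The *Foxf1*/*Hand1* cells and those gated by *Noto*, *Chrd* and *Shh*, led by haemoglobin genes, were given no cell type name. No doublet caller was used in the main analysis, and scrublet, an alternative, called 4 and 19 barcodes.

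UMIs were summed per population and library. Calls by size of the ratio (0.8 or its inverse, and 1.5-fold) used genes whose UMIs reached 100 in the sum of both genotypes, without p-values. Intervals (scipy 1.17.1) are at the 95% level. TMM factors came from edgeR 4.0.16 in R 4.3.3. Counts for embryonic cells were simulated with Poisson error alone (13110 genes, 200 changed by a factor of 2). Of the changed genes 99.55% had an interval on the right side of 1, and 95.34% of the intervals of unchanged genes held 1. Since the intervals assume the same error, this checks the computation only. It does not cover variation between cells, embryos or libraries, or the calls by size. Of the features, 32235 of 32285 matched GENCODE M21, and 9 of the 10 genes matched a RefSeq promoter.

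The genes and lists were chosen with earlier results of these data known. Named were all 10 genes, other pathway genes past 1.5-fold in embryonic cells, and the 3 genes most correlated with each of the 3 members of widest range, of which 1 gene is not reported here. *Yap1*, *Wwtr1*, *Ccn1*, *Ccn2* and *Amotl2* were given as checks of the deletion. *Taok3* and *Map4k2* and the markers of *Foxf1*/*Hand1*, blood and endothelial-like and nascent mesoderm-like cells were named after their values were seen.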

Additional observations from a re-analysis of the deposited data

Results flagged for a closer look

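In 9 of 70 comparisons, the ratio of *Yap1* cKO to control differed between populations beyond its counting interval and the limits for a call. The 70 were 20 of embryonic with extraembryonic cells and 50 of embryonic populations with epiblast-like cells. The *Taok1* ratio in nascent mesoderm-like cells, 1.19 (1.01 to 1.40) of the epiblast-like one, passed its interval only. At the 5% level 3.5 of 70 would pass the interval alone, and the comparisons share cells. With 1 library per genotype no difference was tested over samples.

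Between embryonic and extraembryonic ectoderm-like cells, the ratio of ratios was 0.330 for *Lats2* and 0.591 for *Frmd6*. That of *Frmd6* was 0.713 within cells with *Xist* UMIs and 0.479 within cells with Y-linked UMIs, with overlapping intervals of the compared ratios in either kind. Between embryonic and all visceral endoderm-like cells it was 0.471 for *Lats2*, 0.475 for *Frmd6* and 0.666 for *Mob1a*. Within cells with Y-linked UMIs these 3 values were 0.0637, 0.160 and 1.13, and within cells with *Xist* UMIs 0.730, 0.710 and 0.555. In the cells with *Xist* UMIs, the intervals of the embryonic and visceral endoderm-like ratios overlapped for *Lats2* and *Frmd6*, and not for *Mob1a*. The Y-linked value of *Frmd6* rests on 4 control and 8 mutant visceral endoderm-like UMIs. The visceral endoderm-like side rests on 36 control UMIs of *Lats2* and 22 of *Frmd6*.

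Within the embryo, the ratio in *Foxf1*/*Hand1* cells over that in epiblast-like cells was 0.720 (0.537 to 0.967) for *Mob1a* and 0.728 for *Frmd6*. With *Xist* UMIs the *Mob1a* ratios in these populations were 0.624 (0.425 to 0.922) and 0.752 (0.620 to 0.914). With Y-linked UMIs they were 0.576 (0.328 to 0.958) and 1.12 (0.870 to 1.44). For *Frmd6* they were 0.730 and 0.749 with *Xist* UMIs, and 0.357 and 0.742 with Y-linked UMIs. Each of these pairs had overlapping intervals. Blood and endothelial-like cells had higher ratios than epiblast-like cells for *Stk3*, by 1.34 (1.04 to 1.72), and for *Taok1*, by 1.31 (1.05 to 1.62).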

How the results depend on the processing

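No paired analysis was possible because each genotype has 1 library. Of 1559 recomputed values, 1482 stayed close to the reported value (within its counting interval, or within 1.5 times for a count), 69 moved further and 8 reversed, and the causes were not tested. The embryonic ratio of *Lats2* ran from 0.325 to 0.414 and that of *Frmd6* from 0.446 to 0.709. With cells with Y-linked UMIs alone, embryonic ratios were 0.702 for *Lats1*, 0.740 for *Stk3*, 0.754 for *Sav1*, 0.792 for *Mob1b*, 0.785 for *Nf2*, 0.446 for *Frmd6* and 0.806 for *Taok1*, the median log2 ratio of the 10 genes was -0.38, and 7 were called lower beside 22.6% of all genes. With *Xist*-bearing cells alone they were 0.957 for *Stk3*, 0.962 for *Sav1*, 0.764 for *Mob1a*, 0.709 for *Frmd6* and 0.960 for *Taok1*. There 3 were called lower (*Lats2*, *Frmd6* and *Mob1a*) beside 8.06% of all genes, and *Lats1*, at 0.827, was not. Subtraction of 5% free RNA gave 0.683 for *Lats1* and 1.02 for *Mob1a*, and equal weights of populations gave 0.942 for *Stk3*. No other pathway gene (0) was higher at 1.5-fold.

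Reversed were *Frmd6* in epiblast-like cells without a *Fgf8* UMI (1.07) and in primitive streak-like cells at doubled gates (1.03), *Lats2* in primitive streak-like cells with Y-linked UMIs (1.57), and *Stk3* in *Foxf1*/*Hand1* cells with *Xist* UMIs (1.01). *Lats2* in all visceral endoderm-like cells was 1.01 after subtraction of free RNA, 1.11 at halved gates and 5.10 in cells with Y-linked UMIs, from 3 and 11 UMIs. *Mob1a*, embryonic over all visceral endoderm-like, was 1.13 in cells with Y-linked UMIs. All of these lay past 0.8 or its inverse in the main analysis. Reversed means a value on the other side of 1, also where its interval held 1. Other values, nearer 1 at first, also crossed 1 and were not counted as reversed. They included *Mob1a* after subtraction of 5% free RNA, in embryonic (1.02) and epiblast-like cells (1.16). In epiblast-like cells without a *Fgf8* UMI they included *Sav1* (1.15), *Taok1* (1.15) and *Nf2* (1.06). Few UMIs limit *Lats2* and *Frmd6* in visceral endoderm-like and primitive streak-like cells.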
